A study of Mus musculus with 24 samples.

Results

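The genes described here are those of the mitogen-activated protein (MAP) kinase cascade and of the dual-specificity phosphatases (DUSPs) that switch it off, measured in mouse heart after ischemia-reperfusion (I/R). They were chosen by name on the array: genes called Mapk, Map2k, Map3k, Map4k, Mapkapk or Dusp followed by a number. This gave 68 of 27962 named genes. For each gene the probe with the highest mean heart signal was taken, and it was kept if, in 1 group or more, each array's Cy5 signal for it passed the scanner's background test, which left 55 of the 68 genes, among 11448 kept genes in all. The 13 genes that were not kept, and have no value below, were Dusp9, Dusp13, Dusp14, Dusp15, Dusp23, Map3k2, Map3k7, Map3k8, Map3k9, Map4k2, Mapk4, Mapk11 and Mapk15. The name rule also takes 4 adaptors under the array's older names, namely Map2k1ip1 (now Lamtor3) and Map3k7ip1, Map3k7ip2 and Map3k7ip3 (now Tab1, Tab2 and Tab3).

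The hearts came from mice 12 to 16 weeks old, either wild type (MuRF1+/+) or MuRF1 Tg+, which carry a transgene for the muscle ubiquitin ligase MuRF1 (Trim63). The promoter of the transgene and the line are not given in the sources used here. Each genotype had sham surgery or I/R, a tie and later release of the left anterior descending (LAD) coronary artery. Each heart gave 1 piece from above and 1 from below the tie, or the place where it would have been. The 8 groups of 3 arrays were thus wild-type sham, Tg+ sham, wild-type I/R and Tg+ I/R, each above and below the site, 24 arrays in all. With 3 biological replicates named for each genotype and surgery, both pieces of a heart are not independent samples, and how many animals lie behind a sample is not stated further. Heart RNA carried Cy5 and was hybridised against a Cy3-labelled pool of day 1 C57BL/6 whole pups, and all values are log2 ratios of Cy5 to Cy3: 0 is the ratio at which both channels are equal after normalization, and a log2 difference is read in powers of 2. The Trim63 probe did not separate the genotypes (Tg+ minus wild type in sham hearts -0.02 ± 0.27, adjusted p = 1.00 in the limma fit) and so gives no check of the genotype labels.

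MAP kinases are the last step of a relay in which MAP4K or small GTPases activate a MAP3K, the MAP3K phosphorylates a MAP2K, and the MAP2K phosphorylates the MAP kinase. The ERK1/2 arm answers mainly growth signals, while the JNK and p38 arms answer stress such as oxidants and cytokines, and all of these arms are known to be activated in heart by ischemia and reperfusion. The activity of the kinases lies in their phosphorylation, which an expression array does not measure. DUSPs remove the phosphates, and several of them are transcribed in response to the kinases that they silence.

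The arrays were not of equal quality. The share of spots whose Cy5 signal passed the background test was 34.6% to 43.3% in sham and 9.90% to 38.3% in I/R hearts. The 5 arrays under 25%, called weak-signal arrays below, were all I/R arrays. They were replicates 1 and 2 of wild type above the site, replicate 1 of wild type below it, and replicates 2 and 3 of Tg+ below it. Many of the genes are dim, so results are given with and without these 5 arrays. Without them wild type above and Tg+ below keep 1 I/R array each, so that comparisons of these single groups then assume that the lone array varies like the other groups. The median within-group standard deviation (SD) of the 55 genes was 0.093 in sham groups and 0.149 in I/R groups. The 9 cardiomyocyte markers were all kept, with a mean log2 ratio over the list of 2.96 to 3.59 on sham and 2.59 to 3.41 on I/R arrays, which fits the tissue label. Because pieces were measured in bulk, fewer cells of a type and less RNA per cell cannot be told apart.

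I/R hearts were compared with sham hearts over both genotypes and both pieces. Of the 55 genes, 27 differed at an adjusted p under 0.05 in the limma fit, 12 higher and 15 lower. That is 49.1% of them, against 55.6% of all 11447 genes tested (27.7% higher and 28.0% lower), so the share of the set that passed was not above that of the array. The median difference of the 55 genes was -0.06, and that of all genes -0.002. Map3k6, Dusp26, Dusp6, Mapk13, Mapk7, Dusp2, Dusp11 and Dusp4 had the largest increases, and Map3k4, Dusp7, Mapkapk5, Map3k5, Dusp18, Mapkapk3 and Mapk14 the largest decreases. Each gene that rose had a mean sham ratio under 0, and each that fell had one above 0. Of the 55 genes, 34 had a mean sham ratio above 0 and 21 below. The direction of change thus went with the side of 0 on which the sham ratio lay. What part the weaker Cy5 signal of I/R arrays had in this was not tested. On 1 gene, Map3k6, all 12 I/R arrays lay above all 12 sham arrays, and on 2, Dusp7 and Mapk14, all lay below. Such complete separation was seen for 5.2% of all genes (2.45% higher and 2.74% lower).

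Without the 5 weak-signal arrays 20 genes passed, 9 higher and 11 lower, beside 43.0% of all genes. All 27 kept their sign, 19 of them passed again, and 1 more gene (Map2k4) passed. On 4 slides 1 I/R array lay beside a sham array of the same genotype and piece. Of the 27 genes, 17 had the sign of the averaged difference on all 4 slides, 9 on 3 and 1 (Map2k7) on fewer. With slide as a block 17 of the 27 passed, 7 higher and 10 lower, beside 26.2% of all genes. With Agilent's own log ratio 30 genes passed, 8 higher and 22 lower, beside 48.1% of all genes. Of these 30 calls 26.7% were increases, against 44.4% above. That scaling moved the median of all genes by -0.19. With the Cy5 channel alone, 20 genes passed, 5 higher and 15 lower, beside 41.3% of all genes. The median of all genes was -0.06 there. Under all 4 of these settings (slide as a block, Agilent's ratio, Cy5 alone, and no weak-signal arrays) 13 of the 27 genes passed, among them Map3k6, Mapk7, Dusp6 and Dusp11, which rose, and Map3k4, Map3k5, Mapk9, Mapk14, Mapkapk3, Mapkapk5, Dusp7 and Dusp18, which fell. The other 14 lost their call under at least 1 setting and kept their sign in all. How many of all genes kept their sign on all 4 slides, or passed under all 4 settings, was not counted. Of the genes that fell, Mapk9, Dusp18, Map2k6, Map2k7 and Map3k15 passed the background rule in sham groups only. The filter thus took them through the groups where they were high. Of the genes that rose, Mapk13, Dusp4, Map3k12 and Map4k1 also passed the background rule in sham groups only.

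**Figure D1:**
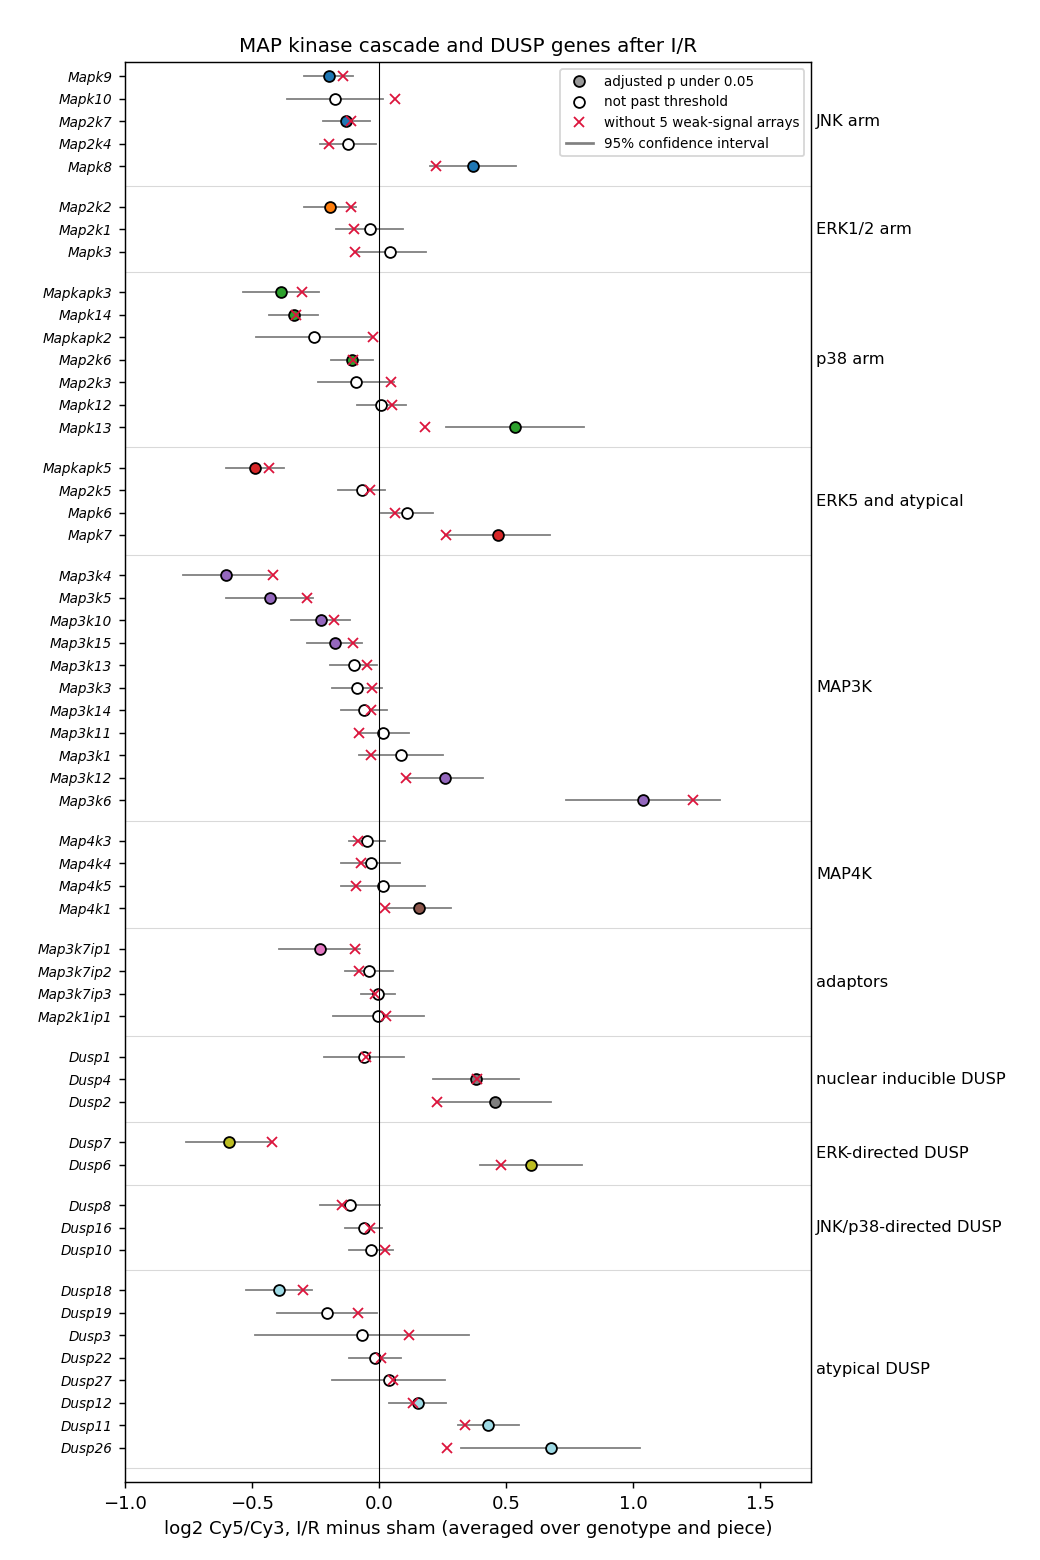
Log2 difference between I/R and sham (horizontal axis, averaged over genotype and piece) of the kept genes described here by role, with 95% confidence intervals of the limma fit over 24 arrays; filled circles passed an adjusted p of 0.05, open circles did not, and crosses are values without the 5 weak-signal arrays. Map3k6 stands at 1.04 on the right, Map3k4 (-0.60) and Dusp7 (-0.59) on the left.

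Among the 11 kept MAP3K genes, 2 rose and 4 fell. Map3k6 encodes ASK2, a stress-activated kinase that works with ASK1 above JNK and p38. Its log2 ratio was -0.37 to 0.10 (median -0.15) on sham arrays and 0.25 to 1.89 (median 0.95) on I/R arrays. The groups did not overlap. The difference was 1.04 ± 0.14 (± is the standard error of the fit, adjusted p = 1.3e-05 in limma), or 2.05-fold, and it was 1.23 without the weak-signal arrays. By array, the Map3k6 ratio was 0.49, 0.25 and 1.56 above the site and 0.32, 0.95 and 0.49 below it in wild-type I/R hearts. In Tg+ I/R hearts it was 0.96, 1.03 and 1.35 above and 1.00, 0.53 and 1.89 below. The I/R arrays varied widely, but each exceeded the highest sham value. A second kept probe of Map3k6 gave 0.80 ± 0.14.

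The 250 bases before the start of Map3k6 are shown because it was the largest change in the set. Promoter sequences were taken from RefSeq tables of build GRCm38.p6, which held 53 of the 68 genes. The window lies at chr4:133240568-133240817 on the plus strand and was searched on both strands for the cyclic AMP response element (CRE, TGACGTCA), the AP-1 site (TGANTCA) and the CArG box that serum response factor binds. None of them is in this window.
Map3k6: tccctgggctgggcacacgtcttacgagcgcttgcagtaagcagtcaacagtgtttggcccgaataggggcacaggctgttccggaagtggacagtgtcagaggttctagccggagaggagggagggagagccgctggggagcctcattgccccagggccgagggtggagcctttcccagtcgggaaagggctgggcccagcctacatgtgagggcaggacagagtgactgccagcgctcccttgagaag

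Map3k5, which encodes ASK1, the redox-sensitive partner of ASK2, went the other way. Its ratio was 0.59 to 1.04 (median 0.80) on sham and -0.05 to 0.75 (median 0.33) on I/R arrays, and 8 of 12 I/R arrays lay below the lowest sham array. It fell by 0.43 ± 0.08 on the log2 scale (adjusted p = 0.000256 in limma), and by 0.28 without the weak-signal arrays. In Tg+ hearts above the site it differed by -0.06 ± 0.16, and no Tg+ I/R below array was well above background, where it was at least 1.41-fold lower than in sham.

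Map3k4 encodes MEKK4, which GADD45 proteins bind and activate. It was 0.76 to 1.13 (median 0.94) on sham and -0.02 to 0.79 (median 0.40) on I/R arrays, with 11 of 12 I/R arrays below the sham range. The difference was -0.60 ± 0.08 (adjusted p = 1.18e-05 in limma), which leaves 0.66 of the sham level, and -0.42 without the weak-signal arrays. Map3k10 (MLK2) fell by 0.23, but by 0.03 without passing in the Cy5 channel alone, and Map3k15 (ASK3) fell by 0.17, but by 0.10 without passing when the weak-signal arrays were left out. A second probe of Map3k10 stood at 0.09 without passing. Map3k12 (DLK, a kinase above JNK) rose by 0.26, but by 0.11 without the weak-signal arrays, where it no longer passed (adjusted p = 0.126 in limma). It was not well above background on any Tg+ I/R below array. Map3k1, Map3k3, Map3k11, Map3k13 and Map3k14 did not pass, at 0.09, -0.09, 0.02, -0.10 and -0.06.

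Of the 4 kept MAP4K genes, Map4k1 (HPK1, a kinase of blood cells) rose by 0.16 ± 0.06 (adjusted p = 0.0336 in limma) and stood at 0.02 without the weak-signal arrays. Map4k3, Map4k4 and Map4k5 lay between -0.05 and 0.02. Of the 4 adaptors, Map3k7ip1 (Tab1), which activates TAK1 and also binds p38α, fell by 0.23 ± 0.08 (adjusted p = 0.0153 in limma). Without the weak-signal arrays it stood at -0.09 and did not pass. Map3k7ip2 and Map3k7ip3, which link TAK1 to ubiquitin chains, lay at -0.04 and -0.005.

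The JNK arm has 2 MAP2K and 3 MAP kinase genes, all kept, of which 1 rose and 2 fell. Mapk8 (JNK1) was -0.92 to -0.27 (median -0.62) on sham and -0.61 to 0.26 (median -0.29) on I/R arrays, so the groups overlapped and 6 I/R arrays exceeded every sham array. It rose by 0.37 ± 0.08 (adjusted p = 0.000906 in limma), or 1.29-fold, and by 0.22 without the weak-signal arrays. This is a weak measurement: the probe was well above background on 15 of 24 arrays and on none of the Tg+ sham below arrays. Only 1 Tg+ I/R below array was well above background, so no bound on the fold is given for that comparison. A second kept Mapk8 probe stood at 0.03 ± 0.04, and the Cy5 channel alone gave 0.08 (adjusted p = 0.437 in limma).

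Mapk9 (JNK2) was 0.05 to 0.34 (median 0.19) on sham and -0.18 to 0.14 (median -0.03) on I/R arrays, with 9 of 12 I/R arrays below the sham range. It fell by 0.20 ± 0.05 (adjusted p = 0.00159 in limma) and by 0.14 without the weak-signal arrays. Its other kept probes gave -0.20, which passed, and -0.10, which did not. No Tg+ I/R below array was well above background for it. Mapk10 (JNK3, found mainly in brain, heart and testis) was 0.25 to 0.71 (median 0.48) on sham and -0.20 to 1.07 (median 0.33) on I/R arrays and did not pass (-0.17 ± 0.09, adjusted p = 0.111 in limma). It stood at 0.06 without the weak-signal arrays and passed, at -0.24, without wild-type I/R above replicate 3.

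Map2k4 (MKK4, which can also activate p38) was -0.003 to 0.34 (median 0.15) on sham and -0.29 to 0.19 (median 0.06) on I/R arrays, 5 of them below the sham range. Its difference of -0.12 ± 0.05 did not pass (adjusted p = 0.0566 in limma). It passed without the weak-signal arrays (-0.20, adjusted p = 0.0157 in limma) and without any 1 of Tg+ sham above or below replicate 3, wild-type I/R above replicate 1 or Tg+ I/R above replicate 3. Map2k7 (MKK7, specific to JNK) was -0.004 to 0.32 (median 0.16) on sham and -0.15 to 0.24 (median 0.02) on I/R arrays. It fell by 0.13 ± 0.04 (adjusted p = 0.0193 in limma) and by 0.11 without the weak-signal arrays, where it did not pass.

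In the ERK1/2 arm, Mapk3 (ERK1) was -0.60 to -0.39 on sham and -0.66 to -0.003 on I/R arrays and did not pass (0.05 ± 0.07, adjusted p = 0.579 in limma). Its sign was not stable, at -0.09 without the weak-signal arrays and -0.15 with Agilent's own ratio.

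Among the kinases that activate ERK, Map2k2 (MEK2) was 0.19 to 0.43 (median 0.34) on sham and -0.12 to 0.32 (median 0.16) on I/R arrays. It fell by 0.19 ± 0.05 (adjusted p = 0.00306 in limma), but by 0.11 without the weak-signal arrays, where it did not pass. Map2k1 (MEK1) was -0.48 to 0.15 on sham and -0.48 to -0.05 on I/R arrays, with a difference of -0.04 ± 0.06 (adjusted p = 0.632 in limma). With Agilent's own ratio it passed at -0.61.

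In the p38 arm 7 of 8 genes were kept, 1 rose and 3 fell. Mapk14 encodes p38α, the main p38 of the heart muscle cell. Its ratio was -0.13 to 0.24 (median 0.08) on sham and -0.40 to -0.16 (median -0.27) on I/R arrays, so that no I/R array reached the lowest sham value. It fell by 0.34 ± 0.05 (adjusted p = 9.84e-06 in limma), to 0.79 of the sham level, and by 0.33 without the weak-signal arrays. It passed in both pieces of both genotypes, and its 12 I/R arrays had an SD of 0.092. The calls of these single groups were not firm. With slide as a block Mapk14 passed in none of them. In wild type it then stood at -0.34 above (adjusted p = 0.154) and -0.33 below (adjusted p = 0.260 in limma). The wild-type call above was also lost without sham replicate 1 or 2. The wild-type call below was lost without sham replicate 1 or 3 or I/R replicate 3.

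Mapk13 (p38δ) was -1.88 to -1.53 (median -1.67) on sham and -1.76 to -0.46 (median -1.32) on I/R arrays. It was well above background on 12 sham but only 6 I/R arrays. It rose by 0.53 ± 0.13 (adjusted p = 0.00212 in limma), but by 0.18 without the weak-signal arrays. The deviations of the 5 weak-signal arrays from their sham group were 0.52 to 1.21, and those of the other 7 were -0.15 to 0.61. The Cy5 channel alone gave 0.015 (adjusted p = 0.876 in limma). It passed without the weak-signal arrays (adjusted p = 0.0102 in limma). It did not pass with slide as a block (0.49, adjusted p = 0.0810 in limma), with Agilent's ratio (0.27, adjusted p = 0.172) or with that ratio without the weak-signal arrays (0.11, adjusted p = 0.580). Mapk12 (p38γ, abundant in skeletal muscle) was 0.12 to 0.47 on sham and -0.07 to 0.48 on I/R arrays, with a difference of 0.01 ± 0.05 (adjusted p = 0.877 in limma).

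Map2k3 (MKK3) was 0.14 to 0.62 on sham and -0.10 to 0.64 on I/R arrays and did not pass (-0.09 ± 0.07, and 0.05 without the weak-signal arrays). Map2k6 (MKK6) was -0.10 to 0.19 on sham and -0.20 to 0.05 on I/R arrays and fell by 0.11 ± 0.04 (adjusted p = 0.0314 in limma). That call was lost without the 5 weak-signal arrays. It was also lost, at adjusted p of 0.0538 to 0.0660 in limma, without any 1 of wild-type sham above replicate 3 or below replicate 2, Tg+ sham above replicate 3 or below replicate 1, wild-type I/R above or below replicate 2, and Tg+ I/R below replicate 1. Mapkapk2 and Mapkapk3 are kinases that p38 activates and that phosphorylate the small heat shock protein Hsp27. Mapkapk3 was 0.13 to 0.70 (median 0.42) on sham and -0.24 to 0.60 (median 0.01) on I/R arrays and fell by 0.39 ± 0.07 (adjusted p = 0.000216 in limma), and by 0.30 without the weak-signal arrays. Mapkapk2 did not pass (-0.25 ± 0.11, adjusted p = 0.0548 in limma) and stood at -0.02 without them.

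The JNK arm was set against the ERK1/2 and p38 arms by the median of its genes, with no test, since the genes were chosen with earlier results known. The median difference was -0.13 for the 5 JNK genes, -0.11 for the ERK1/2 genes and -0.11 for the 7 p38 genes, beside -0.002 for all genes. On single I/R arrays, each against the mean of its sham group, the JNK median ran from -0.25 to 0.01, the ERK1/2 median from -0.31 to 0.002 and the p38 median from -0.30 to 0.10. The JNK median was under the ERK1/2 median on 5 of 12 I/R arrays and under the p38 median on 6. The ERK1/2 median was under the p38 median on 7. The order of the arms thus varied from array to array.

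The distance between the arms depended on the scaling. Agilent's own ratio gave -0.64 for JNK, -0.40 for ERK1/2 and -0.26 for p38, with all genes at -0.19, and the same ratio without the weak-signal arrays gave -0.26, -0.21 and 0.02, so that the p38 median changed sign there. In wild-type hearts the medians above and below the site were -0.07 and -0.10 for JNK, -0.09 and -0.08 for ERK1/2, and -0.12 and 0.005 for p38. In Tg+ hearts they were -0.20 and -0.12 for JNK, -0.19 and -0.14 for ERK1/2, and -0.16 and -0.22 for p38. Within the JNK and p38 arms the genes stood further apart than the arms did. Mapk8 was 0.37 and Mapk9 -0.20, and Mapk13 was 0.53 and Mapk14 -0.34. Without the weak-signal arrays the values were 0.22, -0.14, 0.18 and -0.33, in the same order. With the Cy5 channel alone Mapk8 stood at 0.08 and Mapk13 at 0.015, so the size of this spread also depended on the processing.

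**Figure D2:**
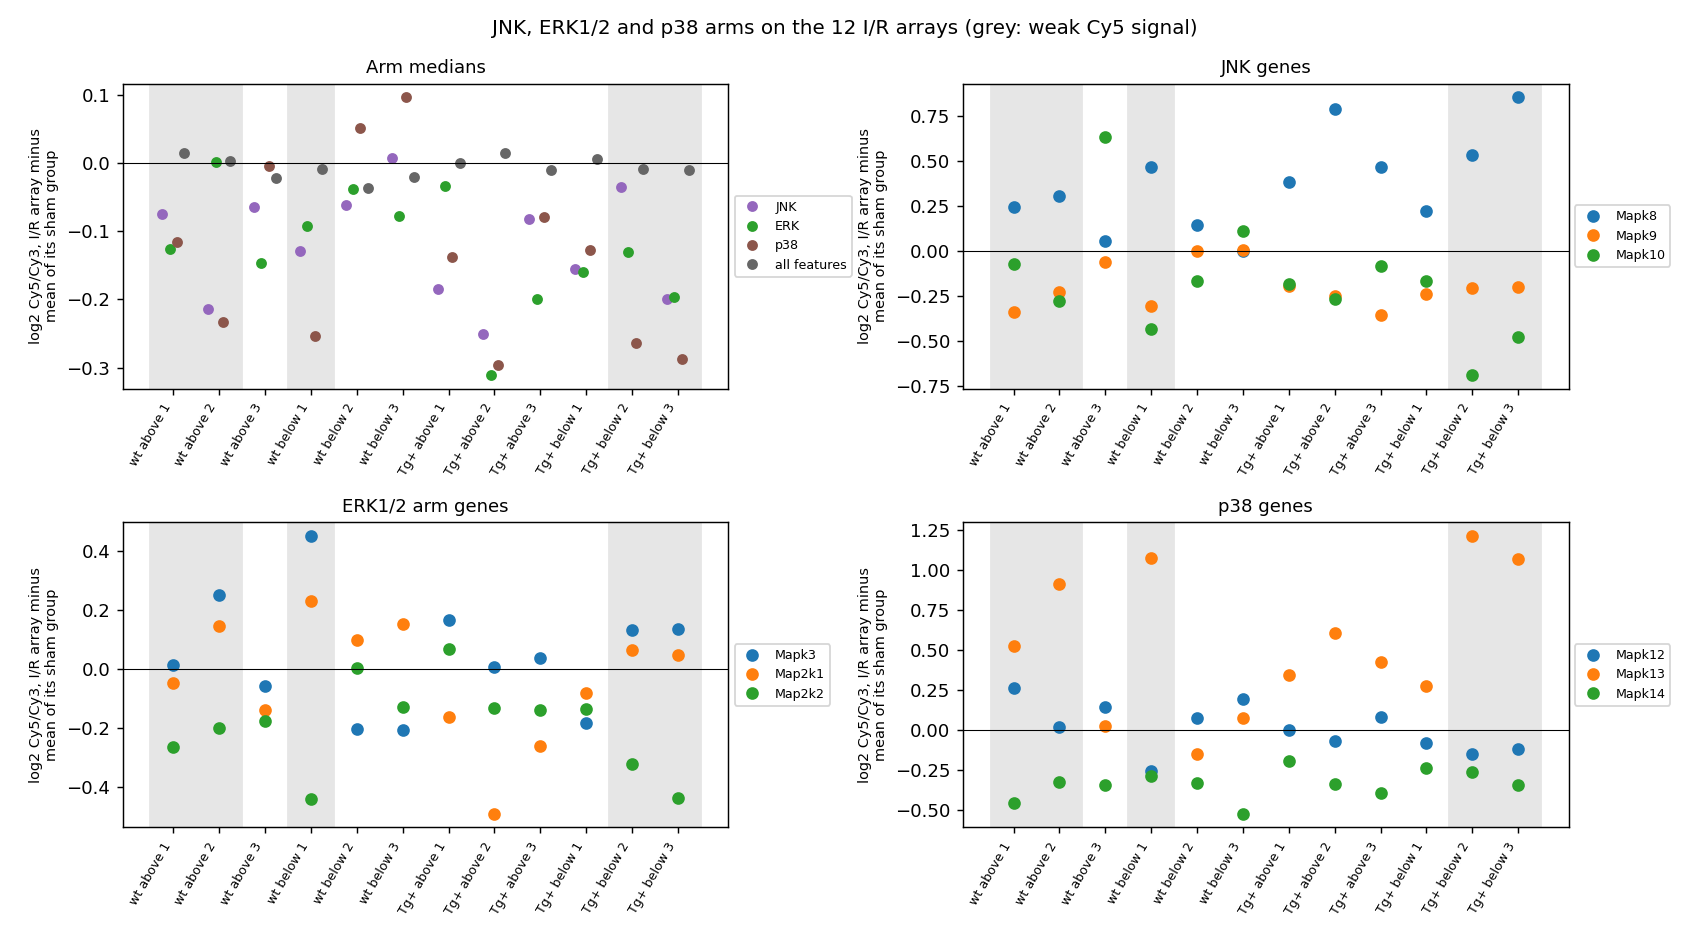
Differences of each of the 12 I/R arrays (horizontal axis, grey where the Cy5 signal was weak) from the mean of its sham group in log2 ratio, as arm medians and for single genes of the JNK, ERK1/2 and p38 arms. The arm medians interleave between -0.31 and 0.10 in the main values (Agilent's own ratio without the weak-signal arrays put the p38 median above 0, at 0.02), Mapk14 lies below 0 on all 12 arrays, and the 4 highest Mapk13 values are all from weak-signal arrays.

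Outside these arms, Mapk7 encodes ERK5, a large MAP kinase activated by MEK5. It was -1.34 to -0.94 (median -1.07) on sham and -1.16 to 0.01 (median -0.78) on I/R arrays, of which 10 exceeded the sham range. It rose by 0.47 ± 0.10 (adjusted p = 0.000721 in limma), or 1.38-fold, and by 0.26 without the weak-signal arrays. A second Mapk7 probe gave 0.22. Its activator Map2k5 (MEK5) did not pass (-0.07 ± 0.04), nor did Mapk6 (ERK3, 0.11 ± 0.05).

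Mapkapk5 (MK5 or PRAK) binds ERK3 and ERK4. It was 0.43 to 0.77 (median 0.54) on sham and -0.30 to 0.44 (median 0.10) on I/R arrays, and 11 of 12 I/R arrays lay below the sham range. It fell by 0.49 ± 0.05 (adjusted p = 1.15e-06 in limma), to 0.71 of the sham level and with the smallest p of the 55 genes, and by 0.43 without the weak-signal arrays. A second probe gave -0.16.

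Of the nuclear, inducible DUSPs, Dusp4 (MKP-2) and Dusp2 (PAC-1) rose, while Dusp1 (MKP-1) did not pass. Dusp4 was -0.78 to 0.07 (median -0.48) on sham and -0.55 to 0.24 (median -0.08) on I/R arrays. It rose by 0.38 ± 0.08 (adjusted p = 0.00079 in limma), or 1.30-fold, and by 0.39 without the weak-signal arrays, but the Cy5 channel alone gave 0.14 (adjusted p = 0.317 in limma). Its probe was well above background on only 8 sham and 6 I/R arrays. Dusp2 was -1.16 to -0.69 (median -0.90) on sham and -0.94 to 0.12 (median -0.43) on I/R arrays. It rose by 0.46 ± 0.11 (adjusted p = 0.00142 in limma), by 0.23 without the weak-signal arrays, and it was well above background on only 5 sham and 6 I/R arrays. The Cy5 channel alone gave 0.18 without passing. In Tg+ hearts below the site it was above background in neither group.

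Dusp1 (MKP-1), an immediate-early gene that silences p38 and JNK, was 0.08 to 0.51 (median 0.33) on sham and -0.07 to 0.84 (median 0.18) on I/R arrays. The I/R arrays reached past both ends of the sham range, by 3 arrays each, and the difference was -0.06 ± 0.07 (adjusted p = 0.512 in limma). In wild-type hearts it was -0.33 above and -0.20 below the site, and in Tg+ hearts 0.28 and 0.02, none of which passed.

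The cytoplasmic phosphatases that act on ERK moved apart. Dusp6 (MKP-3), a transcriptional target of ERK signalling and its feedback inhibitor, was -1.60 to -1.02 (median -1.29) on sham and -1.31 to 0.07 (median -0.65) on I/R arrays, of which 9 exceeded the sham range. It rose by 0.60 ± 0.10 (adjusted p = 6.22e-05 in limma), or 1.51-fold, and by 0.48 without the weak-signal arrays. Dusp7 (MKP-X), its close relative, was 1.18 to 1.41 (median 1.28) on sham and 0.33 to 1.16 (median 0.66) on I/R arrays, without overlap. It fell by 0.59 ± 0.08 (adjusted p = 1.08e-05 in limma), to 0.66 of the sham level, and by 0.42 without the weak-signal arrays.

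The 3 phosphatases that act on JNK and p38, Dusp8, Dusp10 and Dusp16, did not pass. Their differences were -0.12 ± 0.06, -0.03 ± 0.04 and -0.06 ± 0.03. Dusp8 (hVH5), which is known for its expression in heart and brain, was 0.15 to 0.45 (median 0.24) on sham and -0.09 to 0.44 (median 0.16) on I/R arrays, 5 of them below the sham range. Dusp10 (MKP-5) and Dusp16 (MKP-7) overlapped as well.

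The windows before the starts of Dusp6, the inducible phosphatase that rose most, and of Dusp1 and Dusp8, the phosphatases with a CRE there, are shown side by side. In GRCm38.p6 they lie at chr10:99262981-99263230 (plus strand), chr17:26508473-26508722 (minus) and chr7:142095285-142095534 (minus), and capitals mark the CRE.
Dusp6: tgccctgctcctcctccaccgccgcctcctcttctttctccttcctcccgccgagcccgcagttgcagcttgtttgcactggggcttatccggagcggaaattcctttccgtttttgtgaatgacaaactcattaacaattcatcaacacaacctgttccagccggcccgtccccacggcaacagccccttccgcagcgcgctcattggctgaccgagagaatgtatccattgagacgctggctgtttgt
Dusp1: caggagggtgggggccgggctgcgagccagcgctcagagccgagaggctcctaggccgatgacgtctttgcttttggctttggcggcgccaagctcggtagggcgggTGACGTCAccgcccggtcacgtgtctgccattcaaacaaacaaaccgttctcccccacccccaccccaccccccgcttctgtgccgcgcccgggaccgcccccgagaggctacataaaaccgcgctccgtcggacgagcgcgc
Dusp8: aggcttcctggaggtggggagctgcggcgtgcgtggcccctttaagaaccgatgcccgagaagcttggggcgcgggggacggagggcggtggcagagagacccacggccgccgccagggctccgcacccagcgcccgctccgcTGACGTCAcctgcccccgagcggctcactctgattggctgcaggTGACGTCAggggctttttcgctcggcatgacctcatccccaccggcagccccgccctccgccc
Counted back from the start, the Dusp1 CRE begins at base -143 and those of Dusp8 at -107 and -63. The 46 kept genes with a window had 59 windows. A CRE was in 3 of the 59 (Dusp1, Dusp8 and Mapk10) and in 1.55% of all 32851 windows of this length. An AP-1 site was in 3 of the 59 (Map2k6, Map2k7 and Map3k10) and in 6.75% of all windows. A CArG box was in none of the 59 and in 1.47% of all. The median share of G and C bases was 62.8% in the windows of kept genes and 52.4% in all windows. The part of base content in these counts was not tested. The Dusp6 window held none of these motifs.

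Of the 8 kept atypical DUSPs, which are small phosphatases without a MAP kinase docking domain, 3 rose and 1 fell. Dusp11 (PIR1), which acts on RNA 5′ ends, was -0.32 to -0.02 (median -0.23) on sham and -0.02 to 0.63 (median 0.26) on I/R arrays, 11 of which exceeded the sham range. It rose by 0.43 ± 0.06 (adjusted p = 9.03e-06 in limma), or 1.35-fold, and by 0.34 without the weak-signal arrays, while its 2 other kept probes stood at 0.006 and 0.09 and did not pass. Dusp26 was -2.15 to -1.67 (median -1.89) on sham and -1.89 to -0.33 (median -1.38) on I/R arrays. It rose by 0.67 ± 0.17 (adjusted p = 0.00268 in limma, without wild-type I/R above replicate 1, which has no value), but by 0.27 without the weak-signal arrays. With slide as a block it did not pass (adjusted p = 0.166 in limma). Dusp12, which has a zinc-binding domain, rose by 0.15, a call lost without the weak-signal arrays (0.13, adjusted p = 0.0729 in limma).

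Dusp18, a phosphatase found in mitochondria, was 0.39 to 0.86 (median 0.60) on sham and -0.05 to 0.56 (median 0.18) on I/R arrays. It fell by 0.39 ± 0.06 (adjusted p = 5.04e-05 in limma) and by 0.30 without the weak-signal arrays. Below the site in Tg+ hearts it was not well above background after I/R, and it was at least 1.26-fold lower there. Dusp3 (VHR) did not pass (-0.07 ± 0.20, adjusted p = 0.789 in limma), with I/R values from -0.01 to 2.47 of which 2 lay above and 3 below the sham range of 0.67 to 1.79. Dusp19, Dusp22 and Dusp27 did not pass either, at -0.21, -0.02 and 0.04.

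**Figure D3:**
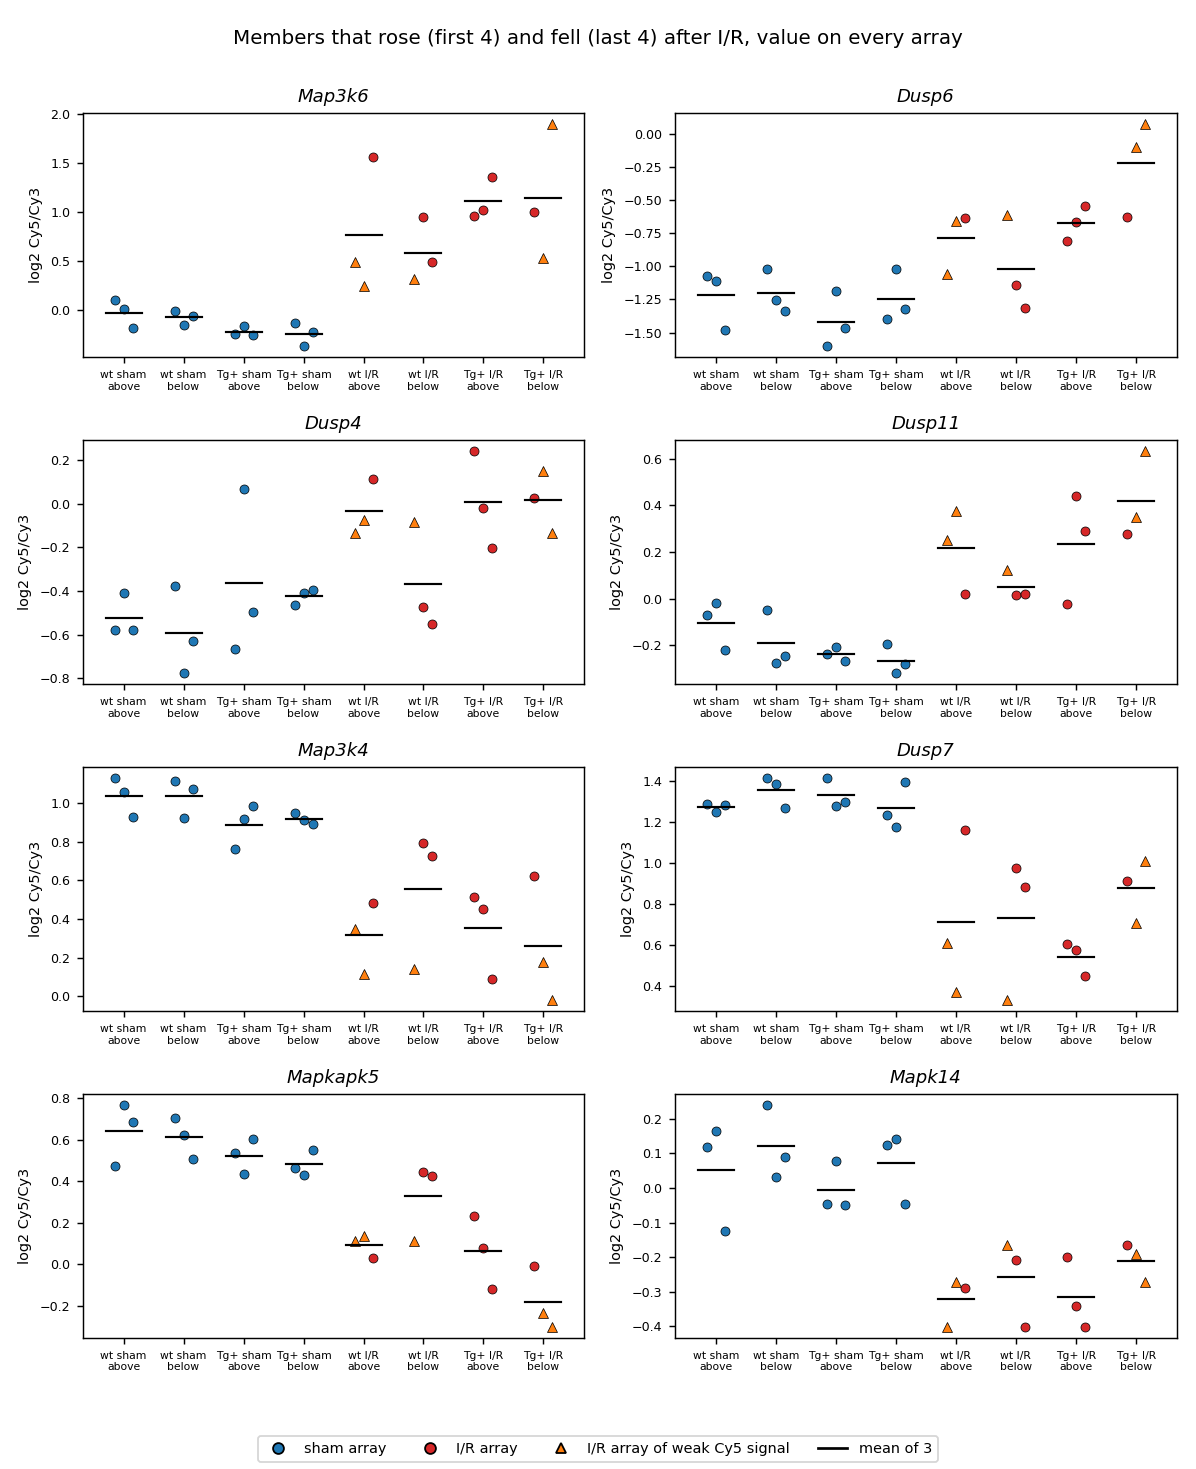
Log2 Cy5/Cy3 ratio of 8 genes (vertical axis) on every array of the 8 groups of 3 (horizontal axis), with group means as lines and weak-signal I/R arrays as triangles; the first 4 genes rose and the last 4 fell. Map3k6 lies above, and Dusp7 and Mapk14 lie below, the whole sham range on all 12 I/R arrays.

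For each genotype and piece by itself, with 3 arrays a group, fewer genes passed. In wild-type hearts above the site 5 of 55 passed, all lower (background 13.3% of all genes, 5.98% higher and 7.30% lower): Map3k4 (-0.72 ± 0.17), Map3k5 (-0.60 ± 0.16), Dusp7 (-0.56 ± 0.16), Mapkapk5 (-0.55 ± 0.11) and Mapk14 (-0.37 ± 0.09). Below the site 2 passed, Dusp7 (-0.63 ± 0.16) and Mapk14 (-0.38 ± 0.09), with a background of 5.6% (2.15% higher and 3.45% lower). In Tg+ hearts above the site 11 passed, 4 higher and 7 lower (background 15.3%, 6.94% higher and 8.41% lower), among them Map3k6 (1.33 ± 0.29), Dusp7 (-0.79 ± 0.16), Mapkapk3 (-0.59 ± 0.14), Dusp11 (0.47 ± 0.12) and Mapkapk5 (-0.46 ± 0.11). Below the site 18 passed, 9 in each direction (background 32.5%, 15.3% higher and 17.1% lower), among them Map3k6 (1.38 ± 0.29), Dusp6 (1.03 ± 0.19), Dusp11 (0.69 ± 0.12) and Mapkapk5 (-0.66 ± 0.11). Mapk14 was the 1 gene that passed in all 4, and it passed in none of them with slide as a block. Of the 55 genes, 13 had a positive and 18 a negative difference in all 4. How many of all genes did so was not counted. These comparisons rest on single arrays. Without the weak-signal arrays wild type above keeps 1 I/R array. There Dusp7 stood at -0.11, Map3k5 at -0.33 and Mapk14 at -0.34. Under the other settings the smallest falls of Map3k4 and Mapkapk5 in wild type above were -0.56 and -0.39. The wild-type above count fell to 2 without sham replicate 1 or 2. The wild-type below count fell to 0 without sham replicate 1 or 3, and to 1 without sham replicate 2 or I/R replicate 1 or 3. The Tg+ above count fell to 4 without sham replicate 1, and to 5 without sham replicate 3 or I/R replicate 2 or 3. The Tg+ below count fell to 11 without sham replicate 1 or 2, to 10 without I/R replicate 2 and to 9 without I/R replicate 3, both of which are weak-signal arrays. It was 8 without all 5 weak-signal arrays, with 1 I/R array left in the group. With slide as a block, 1, 0, 1 and 1 genes passed in these 4 comparisons.

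Tg+ hearts were compared with wild-type hearts, which asks whether the transgene changed the cascade. After sham surgery none of the 55 genes differed in the limma fit (background 0.0524% of all genes, 0.0349% higher and 0.0175% lower). At an unadjusted p under 0.05 there were 2, beside 3.8% of all genes. The smallest p were those of Map3k10 (-0.24 ± 0.08) and Map3k15 (-0.17 ± 0.07), both with an adjusted p of 1.00 in limma. After I/R none differed above the site (background 0.655%, 0.253% higher and 0.402% lower). At an unadjusted p under 0.05 there were 7, beside 14.1% of all genes. The genes nearest to the threshold there were Map2k1ip1 (-0.68 ± 0.17, adjusted p = 0.0732 in limma) and Dusp1 (0.50 ± 0.15, adjusted p = 0.126 in limma). Both passed when wild-type I/R above replicate 3 was left out (adjusted p = 0.0296 and 0.0346 in limma), and Dusp1 also without Tg+ I/R above replicate 1 (adjusted p = 0.0191 in limma). The count was 3 and 1 there, and Map2k1ip1 also passed with slide as a block (-1.23, adjusted p = 0.0322 in limma).

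Below the site 3 of 55 genes differed after I/R, 1 higher and 2 lower in Tg+ hearts, or 5.45%, against 2.94% of all genes (1.22% higher and 1.71% lower). Dusp6 was -0.63, -0.10 and 0.07 in Tg+ and -0.61, -1.14 and -1.31 in wild-type I/R hearts, so that the lowest Tg+ array lay just under the highest wild-type array. The difference was 0.81 ± 0.19 (adjusted p = 0.0346 in limma). In each genotype the highest Dusp6 values were those of the weak-signal arrays (-0.61 in wild type, -0.10 and 0.07 in Tg+), and the difference was 0.60 without the 5 weak-signal arrays, where it did not pass (adjusted p = 0.0719 in limma). That value sets 1 Tg+ array against 2 wild-type arrays, with the spread taken from the other groups. Mapkapk3 was -0.21, -0.16 and -0.24 in Tg+ and 0.04, 0.55 and 0.60 in wild-type hearts, lower by 0.60 ± 0.14 on the log2 scale (adjusted p = 0.0339 in limma). Mapkapk5 was -0.01, -0.23 and -0.30 in Tg+ and 0.11, 0.44 and 0.42 in wild-type hearts, lower by 0.51 ± 0.11 (adjusted p = 0.0249 in limma). The Tg+ arrays lay below every wild-type array for both kinases. How many of all genes separated in this way was not counted. In this comparison 2853 of 11448 genes had an unadjusted p under 0.05 in limma. Without the 5 weak-signal arrays, again with 1 array against 2, 5 genes passed, of these 3 only Mapkapk3, and Mapkapk5 stood at -0.44 (adjusted p = 0.0606 in limma). The count of 3 fell to 0 without any 1 of wild-type replicates 2 and 3 and Tg+ replicates 2 and 3 of these groups, and with slide as a block. It rose to 25 without wild-type replicate 1 and to 10 without Tg+ replicate 1. The share of all genes in these fits is not given here.

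Whether I/R changed a gene differently in both genotypes was tested as an interaction over both pieces. None of the 55 passed in limma (background 0.0349% of all genes), and 8 had an unadjusted p under 0.05, beside 15% of all genes. The smallest p was that of Map2k1ip1 (Lamtor3, or MP1), which holds MEK1 and ERK1 on late endosomes. In wild-type hearts its ratio was 0.86, 0.34 and 0.32 above and 0.17, 0.47 and 0.57 below the site after I/R, against -0.03 to 0.41 after sham surgery. In Tg+ hearts it was -0.06, -0.06 and -0.39 above and 0.10, 0.10 and -0.48 below after I/R, against 0.02 to 0.36 after sham surgery. The change was 0.31 in wild-type and -0.32 in Tg+ hearts, and the interaction was -0.64 ± 0.17 (adjusted p = 0.0906 in limma). With slide as a block it passed (-0.73, adjusted p = 0.0384 in limma). Next came Dusp6, with 0.58 ± 0.19 (adjusted p = 0.163 in limma), and Dusp3, with 1.14 ± 0.40 (adjusted p = 0.183 in limma). Without wild-type I/R below replicate 1, 5 genes passed, Map2k1ip1 and Dusp6 among them, 2 without Tg+ I/R below replicate 1, the same pair, and 1 without Tg+ I/R above replicate 1.

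**Figure D4:**
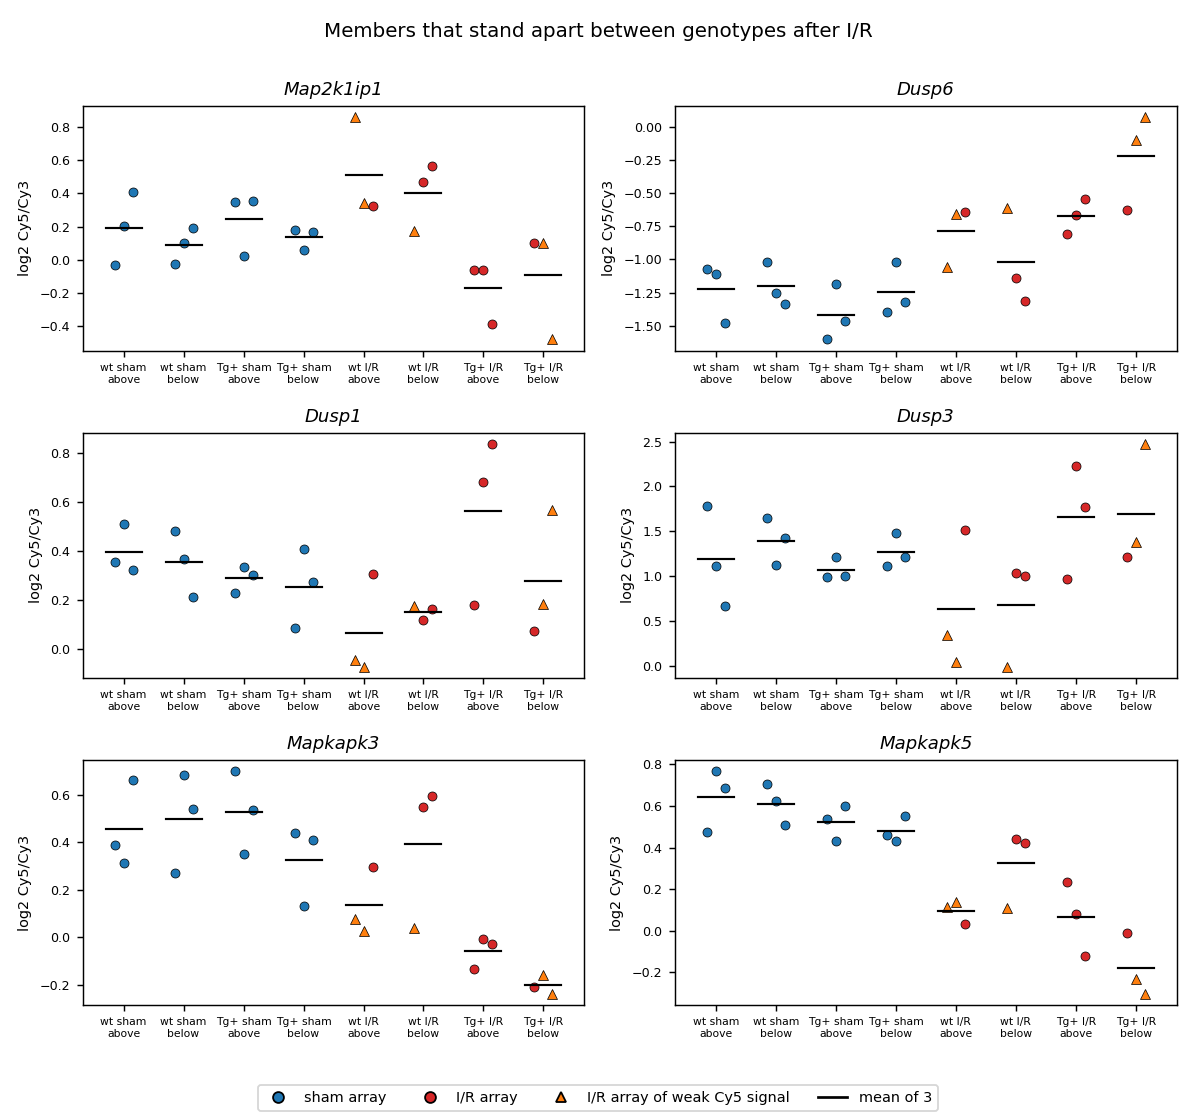
Log2 Cy5/Cy3 ratio (vertical axis) of 6 genes on every array of the 8 groups of 3 (horizontal axis), with group means as lines and weak-signal I/R arrays as triangles. After I/R, Map2k1ip1 lies at 0.17 to 0.86 in wild-type and -0.48 to 0.10 in Tg+ hearts, and below the site all Tg+ arrays lie under all wild-type arrays for Mapkapk3 and Mapkapk5, while 1 Tg+ array of Dusp6 lies at the level of the highest wild-type array. How many of all genes separate in these ways was not counted.

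The pieces of a heart were also compared. Between tissue below and above the site none of the 55 genes passed in sham hearts (background 0% of all genes), nor after I/R (background 0.175%, 0.0786% higher and 0.0961% lower) in the limma fit. At an unadjusted p under 0.05 there was 1 gene in sham hearts, beside 0.515% of all genes, and 2 after I/R, beside 10%. The smallest p after I/R were those of Mapk12 (-0.21 ± 0.07, adjusted p = 0.223 in limma) and Mapk10 (-0.32 ± 0.13, adjusted p = 0.388 in limma). Without the weak-signal arrays 2 genes passed, Mapk10 among them (-0.39, adjusted p = 0.0451 in limma). The interaction of surgery and piece was not past the threshold for any of the 55 genes, with a background of 0%. At an unadjusted p under 0.05 there were 0, beside 3.71% of all genes.

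Other genes of the pathway, from lists drawn up alongside the name rule, were read in the averaged comparison. Of their 48 kept genes 24 passed, against 55.6% of all genes tested (27.7% higher and 28.0% lower). The share of the lists that passed was thus not above that of the array. Of 11 kept Ras and Raf genes 4 rose and 2 fell: the Ras relative Rras2 by 1.26 ± 0.09, Nras by 0.28 ± 0.04, and the exchange factor Sos2 fell by 0.24 ± 0.05. Of 6 genes that activate the stress arms 2 rose and 1 fell. They are the 3 GADD45 genes, whose products bind MEKK4: Gadd45g rose by 1.51 ± 0.19 and Gadd45b by 0.61 ± 0.05, and Gadd45a fell by 0.48 ± 0.06, beside the fall of Map3k4 itself. Of 6 further phosphatases none rose and 3 fell, the PP2C enzymes Ppm1l (-0.65 ± 0.05) and Ppm1b (-0.41 ± 0.06) and the pseudophosphatase Styx (-0.24 ± 0.05). Of 7 scaffolds 3 rose, the arrestins Arrb2 (0.47 ± 0.07) and Arrb1 (0.30 ± 0.10) among them, and Gab1 fell (-0.18 ± 0.05). Of 6 feedback inhibitors of Ras none rose and Rasa1 (-0.15 ± 0.04) and Spred2 (-0.10 ± 0.04) fell, while the Sprouty genes Spry1 and Spry2 did not pass. Of 6 effector kinases Mknk2 (0.23 ± 0.08) and Rps6ka3 (0.13 ± 0.04) rose and Rps6ka2 fell (-0.24 ± 0.04). Of 6 upper-tier kinases under other names Taok3 rose (0.31 ± 0.09), and Taok1 (-0.37 ± 0.09) and Nlk (-0.24 ± 0.09) fell. Without the weak-signal arrays 18 of the 24 calls of these lists passed again. The 6 that did not were Araf (0.12), Grb2 (-0.14), Spred2 (-0.09), Rps6ka3 (0.13), Taok3 (0.16) and Nlk (-0.09), at adjusted p of 0.0551 to 0.171 in limma. Sos2 passed there at -0.14.

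Markers of several cell types moved with surgery. Of 47 kept list entries 32 passed, against 55.6% of all genes tested (27.7% higher and 28.0% lower). All 4 kept of 6 neutrophil markers rose, and their mean log2 ratio was -2.27 to -1.98 on sham and -1.28 to 0.53 on I/R arrays. Of 8 macrophage markers 6 rose (-0.47 to -0.19 against -0.08 to 0.43), and of 7 fibroblast markers 5 rose (-2.76 to -2.24 against -2.90 to -0.83). All 4 kept atrial markers rose, with a mean of -1.93 to 1.88 on sham and -1.67 to 4.14 on I/R arrays, while 4 of 9 cardiomyocyte markers fell and 1 rose. Of 7 endothelial markers 3 fell and none rose (0.32 to 0.80 against -0.08 to 0.85), and of 7 lymphocyte markers 1 was kept and did not pass. Of 4 smooth muscle markers 2 rose and 1 fell, and of 3 kept epicardial markers 2 rose. Without the weak-signal arrays 28 of the 32 marker calls (Nppa counts in both the atrial and the cardiomyocyte list) passed again. The collagens Col1a1 (1.16 with all arrays, 0.38 without) and Col1a2 (0.90 and 0.25) and the cardiomyocyte genes Myh6 (-0.65 and -0.26) and Ttn (-0.61 and -0.57) did not. The median of the fibroblast list moved from 0.79 to 0.25, and Pln, which passed again, from -1.37 to -0.59. The part of these cells in the changes of the 55 genes was not tested.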

How the data were processed

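Each of the 24 arrays was deposited as Agilent Feature Extraction 9.5.3.1 output, per the file headers, with mean and background intensity per channel. The deposited log10 ratio of red to green had been computed from background-subtracted, dye-normalized signals by that program, per the file headers. The deposited log2 series table, whose making no source used here describes, equalled that ratio (correlation at least 0.9998). No source names the array's genome build. All arrays had the same dye orientation.

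Intensities were corrected with normexp (offset 50) and loess-normalized within each array in limma 3.58.1 (R 4.3.3). Control spots and spots with outlier flags had weight 0. Of 41174 probes 15427 were kept. One fit of 8 group means (16 residual degrees of freedom) gave every contrast, with Benjamini-Hochberg adjustment over all kept genes at 0.05. Standard errors and p-values treat both pieces of a heart as separate samples. The number of arrays limits the precision. Where a group had no array with the probe above background, the fold is a bound, taken between the bright group's mean Cy5 signal and the dim group's lowest measurable signal after loess and Aquantile normalization, and open to dye bias.

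Members, gene lists and tests were chosen with earlier results of these data known. The genes described in full were the 8 largest increases and decreases past the threshold, the kept kinases of the JNK, ERK1/2 and p38 arms, and in other comparisons the genes past the threshold (at most the 5 with the smallest p) or, where none passed, the 2 with the smallest p; genes beyond these were named after their values were seen. Of the 68 genes, 57 were matched to current symbols by accession and 11 by symbol. Alternatives were other background corrections, ratios, filters, blocks, weights and probes, and each array left out. The ratio of Agilent without the weak-signal arrays was added after seeing the data. One gene is counted in the totals but not reported here by itself.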

Additional observations from a re-analysis of the deposited data

Results flagged for a closer look

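The mean change of Map2k1ip1 (Lamtor3), the scaffold of MEK1 and ERK1, had opposite signs in the genotypes on these arrays. Against the mean of their sham group, all 6 wild-type I/R arrays lay higher, by 0.083 to 0.67 (mean 0.31), and all 6 Tg+ I/R arrays lay lower, at -0.63 to -0.034 (mean -0.32). The difference between the genotypes' changes was 0.64 on the log2 scale. The interaction had an adjusted p of 0.0906 in limma, so it did not pass the correction over all genes. The gene was singled out because it had the smallest interaction p of the kept genes described here. Of all genes, 15% had an unadjusted interaction p under 0.05 in limma. How many of all genes separate by sign in this way was not counted. Both pieces of a heart are not independent samples, so the arrays of a genotype are not 6 independent measurements.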

How the results depend on the processing

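For the 59 results on named genes, 631 of 736 values under other settings kept their side of the threshold, 84 lost the call and 21 gained one. Of the 631, 13 had the other sign, all for genes that passed under neither setting (Mapk3, Mapk10, Mapk12 and Map2k3 in the averaged comparison). With 1 array left out, 895 of 948 kept their side, 41 lost the call and 12 gained one, and 6 of the 895 had the other sign (Mapk3, Mapk12 and Map2k1). No value that passed in either of the fits compared had the other sign. The causes were not tested. Depth is not measured on arrays; dim probes and the 5 weak-signal arrays limit the precision.

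Slide as a block gave 17 genes for the averaged comparison of I/R with sham (27 above), 1, 0, 1 and 1 for wild type above and below and Tg+ above and below, 1 and 0 for Tg+ against wild type after I/R above and below, and 1 for the interaction of genotype and surgery. Array weights gave 16, 6, 27 and 31 for the same 4 comparisons of I/R with sham, 6, 4 and 30 for the genotypes (sham, I/R above, I/R below), 1 for the pieces after I/R and 22 for the interaction. Agilent's ratio and the series table both gave 3 for wild type above, 3 for Tg+ above and 7 for the genotypes after I/R below. Cy5 alone gave 5 for Tg+ above and 7 for the genotypes below. No filter on dim probes gave 1 for wild type below and 1 for the genotypes below. Without the 5 weak-signal arrays, which leaves 1 I/R array in wild type above and in Tg+ below, the counts were 4 for wild type below, 20 for Tg+ above, 8 for Tg+ below, 2 and 5 for the genotypes above and below, 2 for the pieces after I/R and 1 for the interaction. Agilent's ratio without those arrays gave 23 for Tg+ above, 7 for Tg+ below and 2 for the pieces after I/R. A fit of only the arrays compared gave 3, 0 and 18 for wild type above and below and Tg+ above, and 0 for the genotypes below. In the averaged comparison array weights called 63.3% of all genes, against 55.6% in the main fit. For the counts of the other comparisons here, and for those with 1 array left out, the shares of all genes were not counted. Those counts thus cannot be set against the array.

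The arm medians moved to -0.64 (JNK), -0.40 (ERK1/2) and -0.26 (p38) with Agilent's ratio and the same with the series table, and to -0.26, -0.21 and 0.020 with Agilent's ratio without the weak-signal arrays. The ERK1/2 median was -0.23 with Cy5 alone, and the p38 median -0.20 with no background correction.

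With each array left out in turn the counts ranged from 25 to 30 (averaged), 2 to 6 and 0 to 3 (wild type above and below), 4 to 12 and 9 to 21 (Tg+ above and below), 0 to 3 and 0 to 25 (genotypes after I/R above and below) and 0 to 5 (interaction of genotype and surgery). They stayed at 0 for the genotypes in sham hearts, for the pieces and for the interaction of surgery and piece. The arm medians ranged from -0.15 to -0.12 (JNK), -0.13 to -0.10 (ERK1/2) and -0.13 to -0.09 (p38).

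Same-numbered pieces deviated together in 8 of 12 pairs (correlations of -0.73 to 0.54) and same-numbered I/R and sham samples in 3 of 12, so the numbers were not shown to pair samples. The replicate block by heart gave 27 genes (12 higher, 15 lower), as did the replicate block by number, where Dusp6 in the genotypes after I/R below had an adjusted p of 0.0523 in limma.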
